A study of Mus musculus with 12 samples.

Results

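The B7 family is a group of cell surface proteins that T cells read when they meet antigen. PD-L1 (gene Cd274) and PD-L2 (Pdcd1lg2) bind the inhibitory receptor PD-1, and PD-L1 is induced by interferon gamma in tumor cells and in the macrophages and dendritic cells around them. CD80 and CD86 are the ligands of the activating receptor CD28 and the inhibitory receptor CTLA-4 and are found mainly on antigen-presenting cells, ICOSL binds the costimulatory receptor ICOS, and CD276 (B7-H3) and VTCN1 (B7-H4) are family members often found on tumor cells. The transcripts of these 7 genes were chosen by symbol from a table of 18211 genes. There was a row for 6 of them, all of which passed the filter on low counts and were among the 13563 genes tested, and Vtcn1 was not analysed here.

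The transcripts were measured by RNA sequencing of whole MC38 tumors, a mouse colorectal adenocarcinoma line grown under the skin of female C57BL/6 mice that were 5 weeks old at purchase. The mice were divided on day 7 after injection of the cells into 4 groups, with 3 tumors sequenced from each, and no allele or transgene is named for them. CK received vehicle, PB-020 received the IGF-1R inhibitor PB-020 by mouth at 50 mg/kg per day, anti-PD-1 received the antibody RMP1-14 at 200 µg per mouse into the peritoneum on days 9, 12, 15 and 18, and PB-020+anti-PD-1, the combination, received both agents. The antibody blocks the receptor of PD-L1 and PD-L2 and does not bind either ligand. The groups ask whether each agent, alone or with the other, changes the level of the ligands in the tumor.

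Depth, the sum of the estimated counts in a library, lay between 16545394 and 17217035. Libraries are named below by group and tumor number. Anti-PD-1 tumor 1 stood apart by a summed level of 8 skeletal muscle markers of 1010 TPM (also scaled by gene length, to the same total in every library), against 18.3 to 105 in the other 11 tumors, and CK tumor 3 by a summed level of 7 neutrophil markers of 748 TPM, against 14.5 to 64.0. The line is labelled an adenocarcinoma, but the summed level of 6 epithelial markers was 4.34 to 7.56 TPM, and only Cdh1 of them had enough counts to be tested. In bulk tissue, fewer cells of a type and less RNA per cell cannot be told apart, so every value below is a level in the whole tumor.

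Promoter sequences are shown first, because 4 of the 6 genes rose together and the letter patterns searched belong to factors of interferon signaling. RefSeq windows on GRCm38.p6 were found for 6 of the 7 genes, and none for Cd86. The 250 bases before the start were searched on both strands for GAAANNGAAA, the core of the interferon-stimulated response element, which was in 2.98% of 32851 windows of the same length. They were also searched for TTCNNNGAA, the gamma-activated site of interferon gamma signaling, which was in 7.02% of windows and reads the same on both strands. Neither pattern was in any of the 6 windows. The shorter pattern GAAANNGAA, which lies within the first and was tried after that search had found nothing, was in 7.13% of all windows and, of the 6, only in that of Cd274. Its match lies on the strand opposite to Cd274, 76 to 68 bases before the start that the window adjoins, at chr19:29367362-29367370. This stretch is inside the RefSeq span of Cd274 and also inside an exon that GENCODE vM21 gives to Plgrkt on the other strand. The windows of Cd274 (chr19:29367188-29367437) and Cd80 lie after the first base of the gene spans given below, chr19:29362107 and chr16:38457430. For these genes the start that the window adjoins is therefore not that of the span. GENCODE places no gene at the window of Pdcd1lg2, and the window of Cd80 is inside its Cd80 gene but in no exon. The match is in capitals in the first line below, and the windows of Pdcd1lg2 and Cd80, which rose and held no match, are shown whole. All 3 are written on the plus strand, which is the strand of the genes.
Cd274, chr19:29367352-29367381: actgggtggcTTCGGTTTCacagacagcgg
Pdcd1lg2, chr19:29410669-29410918: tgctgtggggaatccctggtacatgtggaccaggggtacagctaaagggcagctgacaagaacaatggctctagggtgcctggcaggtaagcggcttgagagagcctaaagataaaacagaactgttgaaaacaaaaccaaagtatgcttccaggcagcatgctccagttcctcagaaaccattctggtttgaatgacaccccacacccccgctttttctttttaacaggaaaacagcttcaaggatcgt
Cd80, chr16:38458683-38458932: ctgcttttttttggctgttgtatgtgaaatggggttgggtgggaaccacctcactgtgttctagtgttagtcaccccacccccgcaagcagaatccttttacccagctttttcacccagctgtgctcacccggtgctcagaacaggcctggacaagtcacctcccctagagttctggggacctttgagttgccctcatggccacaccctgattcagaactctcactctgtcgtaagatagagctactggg

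The windows differed in base composition. Those of Cd276 and Icosl, whose transcripts did not pass the test in any comparison, held 77.6% and 68.8% G or C and 29 and 23 CpG pairs. Those of Cd274, Pdcd1lg2 and Cd80 held 50.4%, 48.4% and 52.8% G or C and 11, 3 and 3 CpG pairs, against a median of 52.4% and 6 over all windows. The window of Vtcn1, which had no expression row, held 51.6% G or C and 5 CpG pairs. In GENCODE vM21 all 250 bases of the Cd276 window lie in an exon of Cd276, and 66 bases of the Icosl window in an exon of Icosl. The composition of these windows is therefore partly that of transcribed sequence. These are descriptions of 6 windows with no test.

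PD-L1 RNA was higher in the tumors treated with anti-PD-1. The level of Cd274 (gene 60533, chr19:29362107-29388095, plus strand) in FPKM, a read count scaled by gene length and library total, was 8.50, 6.16 and 15.39 in CK tumors 1 to 3 and 9.13, 8.49 and 11.08 in the PB-020 tumors. It was 31.14, 14.09 and 21.34 in the anti-PD-1 tumors and 15.62, 20.17 and 17.53 in the combination tumors. CK tumor 3, the library with the high neutrophil markers, was the only untreated or PB-020 tumor that reached the level of an antibody-treated one. Group means were 10.02 ± 4.80 in CK, 9.57 ± 1.35 in PB-020, 22.2 ± 8.56 for anti-PD-1 and 17.8 ± 2.28 for the combination (SD, n = 3 each). In the order PB-020, CK, combination, anti-PD-1, the first neighbours differed by less than their spread, as did the last. Averaged over tumors with and without PB-020, the antibody changed Cd274 by 1.03 ± 0.25 on the log2 scale (SE), a fold of 2.04 with a 95% interval of 1.37 to 3.04 and an edgeR adjusted p of 0.020.

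PD-L2 RNA was far lower and also rose with the antibody, with a wider error. The level of Pdcd1lg2 (gene 58205, chr19:29410919-29472927, plus strand) was 0.50, 0.22 and 0.48 FPKM in CK and 0.67, 0.29 and 0.47 FPKM in PB-020. It was 5.75, 0.60 and 0.80 FPKM in anti-PD-1 and 1.80, 1.29 and 1.51 FPKM in the combination. The 3 combination tumors lay close together above all CK and PB-020 tumors, while the anti-PD-1 group consisted of 1 high tumor and a pair near the level of PB-020 tumor 1. Behind these levels were 12 to 28 estimated counts per tumor in CK, 16 to 37 in PB-020, 33 to 318 for anti-PD-1 and 70 to 99 for the combination. The averaged change with the antibody was 2.13 ± 0.58 (log2, SE), a fold of 4.39 with a 95% interval of 1.77 to 10.9 and an edgeR adjusted p of 0.029. The high tumor was anti-PD-1 tumor 1, the one with the muscle markers, and without it the averaged change was 1.26 on the log2 scale with an edgeR adjusted p of 0.0026. The call was lost on leaving out any single CK or PB-020 tumor or combination tumor 1, with edgeR adjusted p between 0.051 and 0.068. Those fits called 2086 to 3101 of all genes, against 3279 with all tumors.

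The ligands of CD28 and CTLA-4 rose with the antibody as well. The level of Cd80 (gene 12519, chr16:38457430-38495958, plus strand) was 1.43, 1.34 and 2.42 FPKM in CK, 1.56, 1.80 and 1.70 in PB-020, 3.78, 1.66 and 2.22 for anti-PD-1 and 3.72, 3.56 and 2.95 for the combination. The 3 combination tumors were above every CK and PB-020 tumor, and anti-PD-1 tumors 2 and 3 were within the CK range. The averaged change of Cd80 with the antibody was 0.75 ± 0.18 (log2, SE), a fold of 1.68 with a 95% interval of 1.28 to 2.21 and an edgeR adjusted p of 0.011.

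The level of Cd86 (gene 12524, chr16:36568956-36666158) exceeded that of Cd80 in all 12 tumors. It was 5.36, 4.94 and 5.73 FPKM in CK, 5.67, 5.03 and 6.56 in PB-020, 11.12, 5.94 and 7.20 for anti-PD-1 and 8.04, 9.29 and 8.55 for the combination. All 6 antibody-treated tumors were above all 3 CK tumors, and anti-PD-1 tumor 2 was below PB-020 tumor 3. Its averaged change was 0.61 ± 0.13 (log2, SE), a fold of 1.52 with a 95% interval of 1.25 to 1.85 and an edgeR adjusted p of 0.0066. Every fit that left out 1 tumor kept the averaged calls of Cd80 and Cd86, with log2 changes of 0.60 to 0.89 for Cd80 and 0.46 to 0.69 for Cd86.

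B7-H3 and the ICOS ligand did not pass the test in any comparison. The level of Cd276 (gene 102657, chr9:58524300-58555033, minus strand) was 12.70, 12.36 and 14.20 FPKM in CK and 11.58, 15.13 and 12.21 in PB-020. It was 14.53, 13.09 and 14.42 for anti-PD-1 and 12.39, 12.75 and 13.43 for the combination, so that the 4 groups overlapped throughout. The 95% interval of its averaged fold with the antibody was 0.936 to 1.15. The level of Icosl (gene 50723, chr10:78069368-78079525, plus strand) was 2.59, 2.65 and 3.20 FPKM in CK, 2.59, 2.21 and 2.50 in PB-020, 3.31, 2.61 and 2.67 for anti-PD-1 and 2.43, 2.99 and 2.83 for the combination. Its averaged fold had a 95% interval of 0.922 to 1.26, which leaves out changes as large as those estimated for Cd80 and Cd86.

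**Figure D1:**
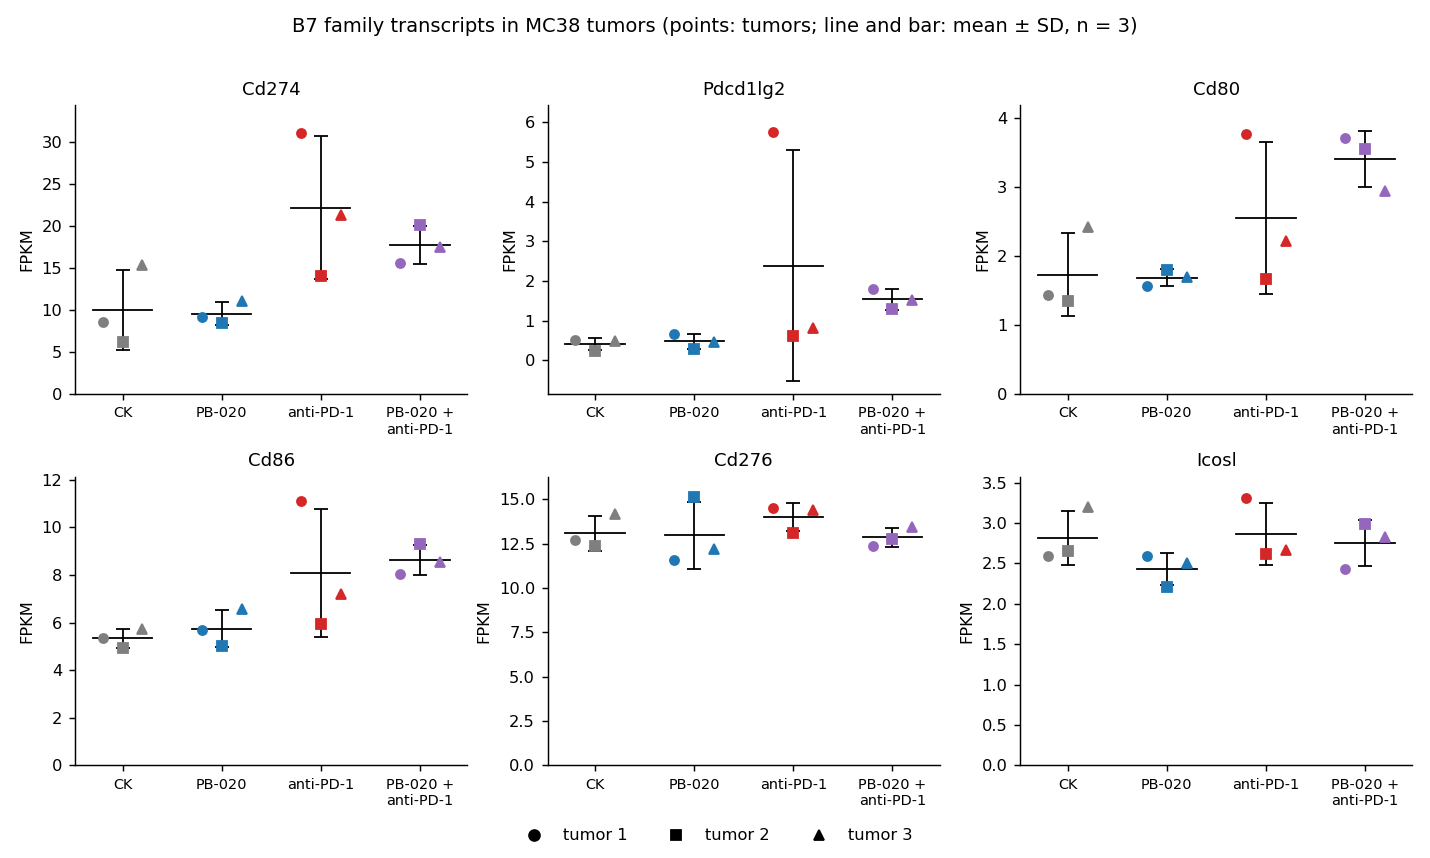
FPKM of the 6 measured B7 family genes in each MC38 tumor, by treatment group, with points for tumors and the line and bar for the group mean ± SD (n = 3). The combination tumors of Cd274, Pdcd1lg2, Cd80 and Cd86 lie above all CK and PB-020 tumors, anti-PD-1 tumor 1 is the highest for Cd274 and Pdcd1lg2, and the groups of Cd276 overlap throughout.

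Counted over all comparisons, 4 of the 6 genes were called higher with the antibody averaged over PB-020, at an edgeR adjusted p under 0.05 over all genes, where 24.2% of all genes tested were called and 11.8% were called higher. The comparison of anti-PD-1 alone with CK called 0 of the 6, against 8.26% of all genes, although 4 had an unadjusted p under 0.05, as 26.6% of all genes did. In it the log2 changes (SE) were 1.17 (0.36) for Cd274, 2.59 (0.83) for Pdcd1lg2, 0.62 (0.26) for Cd80 and 0.62 (0.18) for Cd86, with edgeR adjusted p of 0.078, 0.086, 0.14 and 0.056. DESeq2 called 3 of the 6 in this comparison. Its 1640 calls over all genes were 12.1% of the 13563 genes that edgeR tested. DESeq2 itself was run on all 18211 genes with its own filter, so its shares here and below are approximate. With edgeR, 4 were called when anti-PD-1 tumor 2 was left out and 1, Cd274, when CK tumor 3 was left out. The calls over all genes moved too, from 1120 to 1905 and to 637.

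In the combination against CK, 2 of the 6 were called, where 17.9% of all genes were called and 8.35% were called higher. They were Cd80, at 0.94 ± 0.26 (log2, SE, edgeR adjusted p = 0.024), and Cd86, at 0.71 ± 0.18 (edgeR adjusted p = 0.021). Cd274 changed by 0.85 ± 0.36 and Pdcd1lg2 by 1.97 ± 0.83, both with an edgeR adjusted p of 0.13. The FPKM of the combination and CK groups did not overlap for these 4 genes, as was the case, with the combination higher, for 17.9% of all genes tested. The margin was narrow for Cd274, at 15.62 FPKM for the lowest combination tumor and 15.39 for the highest CK tumor. Both calls were lost without CK tumor 2, combination tumor 1 or combination tumor 2, and only Cd86 was called without CK tumor 1. The calls over all genes fell too, from 2434 to 864, 1085, 1160 and 1806 in that order. DESeq2 called 3 of the 6 and 2742 of all genes, a share of 20.2% taken in the same way. A fold over 1.5 with an unadjusted p under 0.05, without adjustment over genes, was met by 4 of the 6 and 8.52% of all genes here, and by 4 of the 6 and 7.18% in anti-PD-1 against CK. It was met by 3 of the 6 and 5.93% of all genes in the combination against PB-020, and by 2 of the 6 and 5.7% in anti-PD-1 against PB-020.

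PB-020 alone was without a call in the family. In PB-020 against CK edgeR called 0 of the 6 and 0% of all genes, and 0 of the 6 had an unadjusted p under 0.05 or were called by DESeq2. The 95% interval of the log2 change was −0.86 to 0.78 for Cd274 and −0.20 to 0.22 for Cd276, so for PD-L1 RNA the interval reached from 0.550 to 1.72 times the CK level. The combination differed from anti-PD-1 alone in 0 of the 6 by edgeR and by DESeq2, with 0% of all genes called and 0 of the 6 at an unadjusted p under 0.05. The intervals in that comparison were −1.11 to 0.47 for Cd274, −0.22 to 0.86 for Cd80 and −0.30 to 0.48 for Cd86 on the log2 scale.

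The combination against PB-020 alone called 0 of the 6 by edgeR, where 3.35% of all genes were called, with Cd80 at 0.88 ± 0.26 (log2, SE, adjusted p = 0.073) and Cd86 at 0.59 ± 0.18 (adjusted p = 0.087). There were 3 of the 6 at an unadjusted p under 0.05 (22.4% of all genes) and 2 called by DESeq2 (8% of all genes), and the FPKM groups of 4 of the 6 did not overlap, as for 14.5% of all genes with the combination higher. Anti-PD-1 against PB-020 also called 0 of the 6 by edgeR, where 0.192% of all genes were called, and 2 by DESeq2 (4.88% of all genes). The difference between the antibody's change with and without PB-020 passed the test for 0 of the 6 and 0% of all genes, with 0 of the 6 at an unadjusted p under 0.05 and 0 called by DESeq2. Its 95% interval was −1.42 to 0.86 for Cd274 and −0.53 to 1.04 for Cd80 on the log2 scale. The comparisons share groups of tumors with each other and are not independent.

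**Figure D2:**
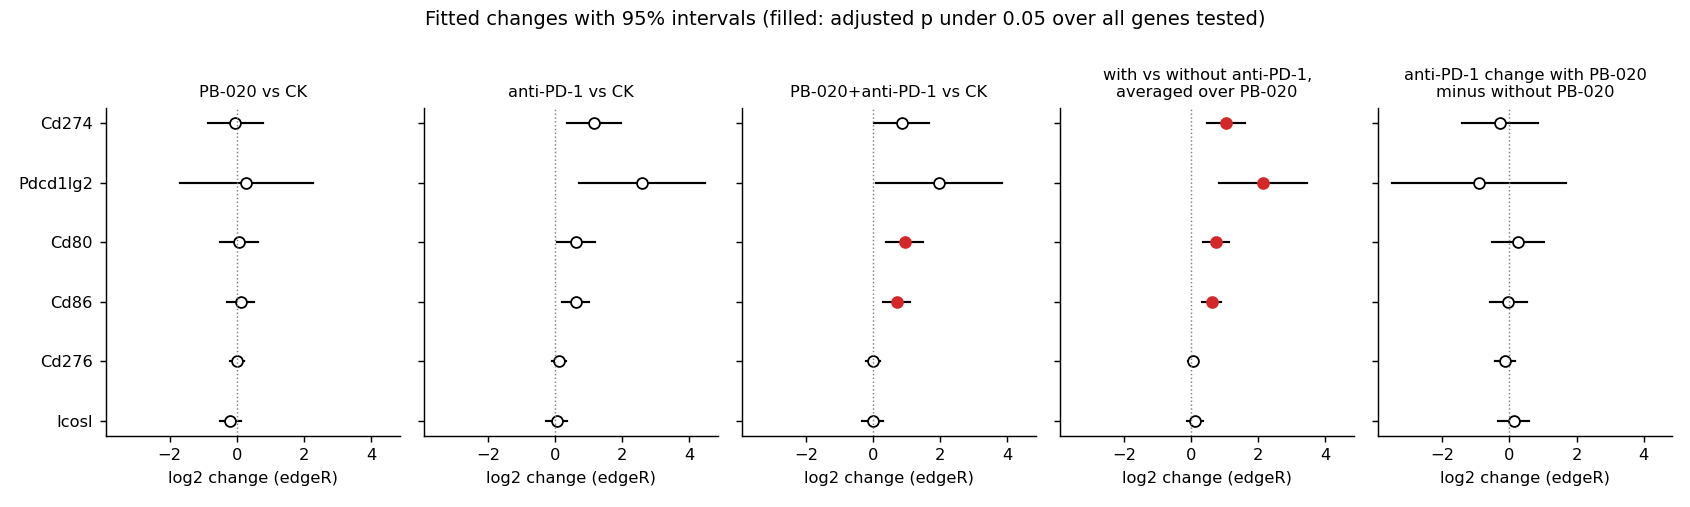
Fitted log2 change (horizontal axis, edgeR) of each of the 6 genes with its 95% interval in 5 comparisons, filled where the adjusted p over all genes tested is under 0.05. Filled points are Cd80 and Cd86 in the combination against CK, and Cd274, Pdcd1lg2, Cd80 and Cd86 with the antibody averaged over PB-020.

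The balance among the ligands shifted with the antibody, in ratios chosen after the levels had been seen that largely restate the calls above. Within each tumor the FPKM of the 6 genes were set against each other, which removes the scaling of the library. Cd276 was the highest of the 6 in 5 of the 6 tumors without the antibody, with CK tumor 3 the exception, and Cd274 was the highest in all 6 tumors with it. The ratio of Cd274 to Cd276 was 0.669, 0.498 and 1.08 in CK and 0.788, 0.561 and 0.907 in PB-020. It was 2.14, 1.08 and 1.48 for anti-PD-1 and 1.26, 1.58 and 1.31 for the combination, so the groups met only at CK tumor 3 and anti-PD-1 tumor 2. An exact two-sided permutation test over tumors within each PB-020 arm gave p = 0.010 (adjusted 0.017 over the 15 pairs of genes), where 0.005 is the smallest p that its 400 permutations allow.

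The ratio of Cd274 to Icosl was 2.32 to 4.81 in the 6 tumors without the antibody and 5.40 to 9.41 in the 6 with it, without overlap (exact permutation p = 0.005, adjusted 0.012). Of the 15 pairs, 11 passed an adjusted p of 0.05. The 4 that did not were Cd274 to Pdcd1lg2, Cd274 to Cd80, Cd80 to Cd86 and Cd276 to Icosl. The ratio of Cd80 to Cd86, ligands that share their receptors, was 0.259 to 0.422 without and 0.279 to 0.463 with the antibody (exact permutation p = 0.23, adjusted 0.25). These ratios were chosen after the levels had been seen. Cd274, Pdcd1lg2, Cd80 and Cd86 had been called higher, and Cd276 and Icosl had not. Ratios of the former genes to the latter largely restate those calls, and their p-values add no separate support. The share of other gene pairs that would pass was not computed.

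Cd80 was below Icosl in all 6 tumors without the antibody and in anti-PD-1 tumors 2 and 3, and above it in anti-PD-1 tumor 1 and all 3 combination tumors. Pdcd1lg2 was the lowest of the 6 in every tumor but anti-PD-1 tumor 1, where it exceeded Cd80 and Icosl. The summed FPKM of the 6 genes ran from 27.7 in CK tumor 2 to 69.6 in anti-PD-1 tumor 1. Cd274 made up 22.3% to 37.2% of this sum without the antibody and 35.5% to 44.7% with it.

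**Figure D3:**
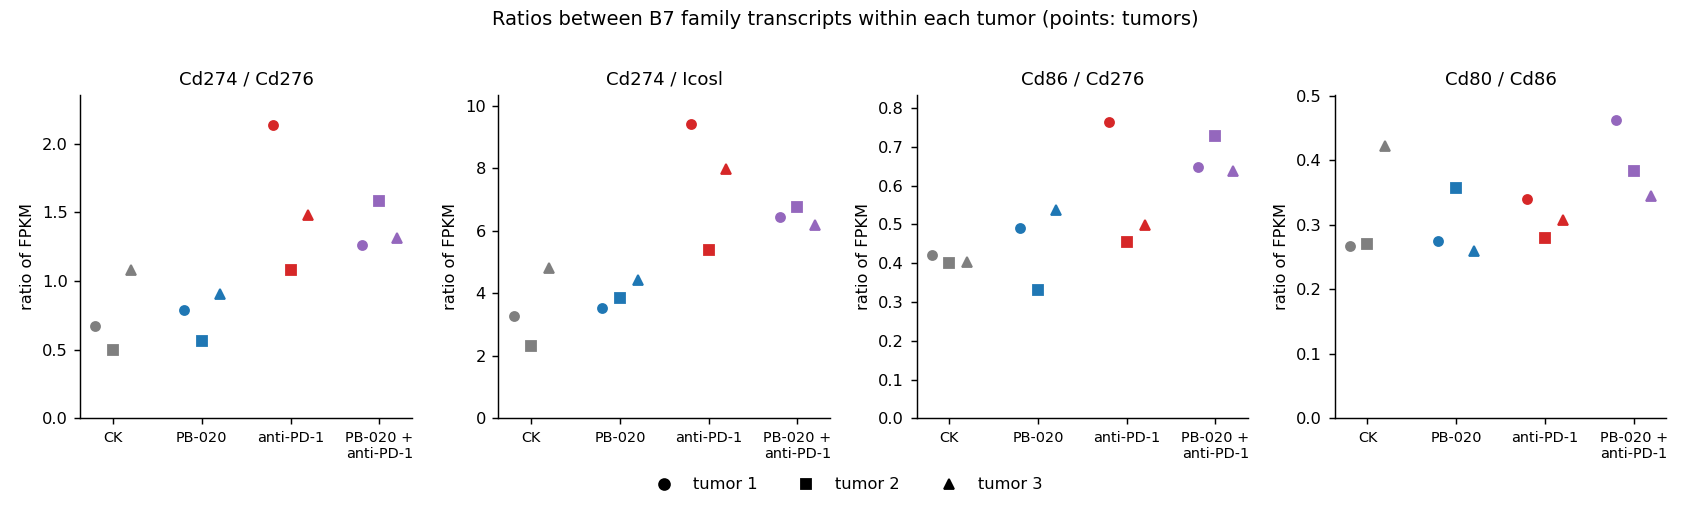
Ratio of FPKM between pairs of B7 family genes within each tumor (points), by treatment group. The ratio of Cd274 to Icosl does not overlap between tumors without the antibody (2.32 to 4.81) and with it (5.40 to 9.41), while that of Cd80 to Cd86 overlaps (0.259 to 0.422 and 0.279 to 0.463).

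The receptors that these ligands bind were next examined. Of 5 receptor genes tested, 4 rose and 1 fell with the antibody averaged over PB-020, where 24.2% of all genes were called and 11.8% were called higher. The level of Pdcd1, which encodes PD-1 itself, was 0.81, 0.79 and 1.28 FPKM in CK, 0.93, 0.90 and 1.69 in PB-020, 5.32, 2.65 and 1.86 for anti-PD-1 and 2.55, 3.28 and 3.21 for the combination. All 6 antibody-treated tumors were above all 6 others, at a log2 change of 1.57 ± 0.26 (SE, edgeR adjusted p = 0.0018). The share of all genes that separate in this way was not computed. The activating receptor Cd28 changed by 1.61 ± 0.31, the inhibitory receptor Ctla4 by 1.60 ± 0.24 and the ICOS ligand's receptor Icos by 1.51 ± 0.35 on the log2 scale, with edgeR adjusted p of 0.0034, 0.0011 and 0.012. The rise in Icos came with no called change in its ligand Icosl.

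The fifth receptor, Rgmb, a bone morphogenetic protein co-receptor that binds PD-L2, fell. Its level was 11.34, 15.69 and 13.71 FPKM in CK, 12.53, 9.15 and 10.98 in PB-020, 6.88, 9.50 and 6.74 for anti-PD-1 and 5.69, 7.39 and 7.35 for the combination. Anti-PD-1 tumor 2 was the only antibody-treated tumor within the range of the others, above PB-020 tumor 2. The log2 change averaged over PB-020 was −0.71 ± 0.12 (SE, edgeR adjusted p = 0.0029). In the combination against CK, 4 of the 5 receptors rose and Rgmb fell, and in anti-PD-1 against CK 3 rose, without Icos, and Rgmb fell. Over all genes, 17.9% and 8.26% were called in these comparisons, in that order.

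Genes of the interferon gamma pathway, which is known to induce PD-L1, rose in part. With the antibody averaged over PB-020, 6 of 12 were called higher and 0 lower, where 11.8% of all genes were called higher. The median log2 change over the 12 was 0.30 against 0.00 over all genes. Ifng, the cytokine, was 0.72 to 0.82 FPKM in CK, 0.84 to 1.84 in PB-020, 1.5 to 5.36 for anti-PD-1 and 2.03 to 3.91 for the combination, a log2 change of 1.73 ± 0.31 (SE, edgeR adjusted p = 0.0026). Irf1, the factor that binds the interferon-stimulated element, was 98.56, 65.50 and 103.48 FPKM in CK, 94.42, 81.98 and 97.62 in PB-020, 206.28, 131.79 and 166.38 for anti-PD-1 and 131.82, 144.35 and 150.92 for the combination. All 6 antibody-treated tumors exceeded the other 6 for Irf1, at 0.79 ± 0.13 (log2, SE, edgeR adjusted p = 0.0029). How many of all genes do so was not computed.

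The feedback inhibitor Socs1 changed by 0.91 ± 0.18, while the receptor chain Ifngr2 and the factor Irf2 changed by 0.18 ± 0.06 and 0.23 ± 0.07 (log2, SE, edgeR adjusted p of 0.0064, 0.030 and 0.028). In the combination against CK, 5 of the 12 were called higher and 1 lower, the kinase gene Jak1 at −0.19 ± 0.06 (log2, SE, edgeR adjusted p = 0.042). In anti-PD-1 against CK, 4 of the 12 were called higher, against 0 of the 6 ligand genes. Over all genes, 17.9% were called in the combination against CK and 8.26% in anti-PD-1 against CK.

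**Figure D4:**
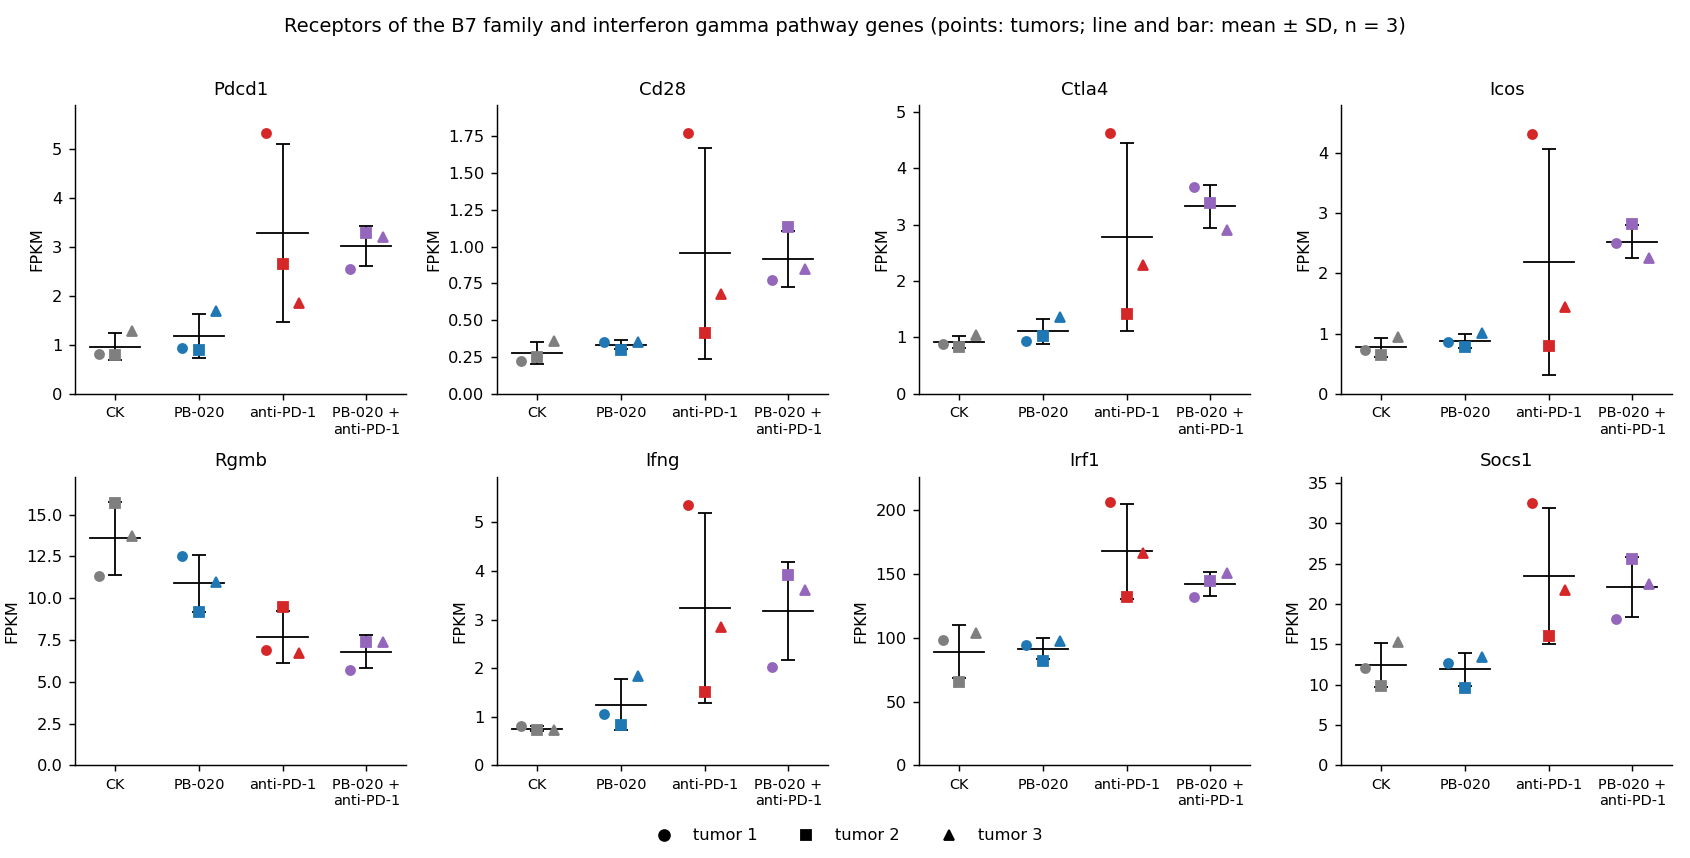
FPKM of the 5 receptor genes and of Ifng, Irf1 and Socs1 in each tumor, with points for tumors and the line and bar for the group mean ± SD (n = 3). Pdcd1 and Irf1 are higher in all 6 antibody-treated tumors than in the other 6, a separation whose share over all genes was not computed. Rgmb is lower in the combination (5.69 to 7.39) than in CK (11.34 to 15.69).

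Genes whose products stabilise, degrade or sort the PD-L1 protein mostly did not pass the test. With the antibody averaged over PB-020, 11.8% of all genes were called higher. Of the 8 examined, 2 were called higher and 0 lower, with a median log2 change of −0.05. They were Hip1r, which encodes an endocytic adaptor that sends PD-L1 to the lysosome (0.54 ± 0.09, edgeR adjusted p = 0.0020), and Cmtm4, which encodes a membrane protein that protects PD-L1 from degradation (0.21 ± 0.05, edgeR adjusted p = 0.014). The related stabiliser Cmtm6 had a log2 change of 0.03 with a 95% interval of −0.13 to 0.19. PD-L1 protein was not among the values analysed here.

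Of 10 genes for proteins that carry the PD-1 and CD28 signals inside T cells, 8 were called higher in the averaged comparison and 0 lower. The median log2 change was 0.53, and 11.8% of all genes were called higher. Lck, the kinase that starts receptor signaling, changed by 0.93 ± 0.18 (log2, SE, edgeR adjusted p = 0.0041), and Ptpn6, which encodes the phosphatase SHP-1, by 0.55 ± 0.12 (edgeR adjusted p = 0.0063). In the combination against CK and in anti-PD-1 against CK, 2 of the 10 were called higher each time. Over all genes, 17.9% and 8.26% were called, in the same order. Of 7 related B7 and butyrophilin genes outside the family list, 3 had enough counts to be tested and 0 were called by edgeR in the averaged comparison. The inhibitory ligand Vsir among them changed by 0.27 (95% interval −0.03 to 0.56), and was 11.91 FPKM in anti-PD-1 tumor 1 and 5.64 to 7.89 FPKM in the other 11 tumors.

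Markers of the cells that can carry these ligands and receptors moved with them to different extents. Of 10 T cell markers, 9 were called higher in the averaged comparison, with a median log2 change of 1.40, and their summed level was 23.9 to 31.2 TPM in CK, 32.6 to 42.4 in PB-020, 53.5 to 143 for anti-PD-1 and 61.5 to 97.9 for the combination. Of 8 cytotoxic markers 4 were called higher, among them Nkg7 and Klrd1, with a median of 1.03. Of 8 classical dendritic cell markers 3 were called higher (Xcr1, Clec9a and Itgax, median 0.44), and of 8 markers of mature dendritic cells 2 (Il12b and Tnfrsf9, median 0.26). In this comparison 11.8% of all genes were called higher. Il12b had 9 to 57 estimated counts per tumor, and which cells carried Tnfrsf9 was not tested. The summed level of the classical dendritic cell list was 19.1 to 22.2 TPM in CK and 24.1 to 25.3 TPM in the combination, and that of the mature list was 238 to 267 TPM in CK and 238 to 268 TPM in the combination.

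Macrophage markers were abundant and changed little. Their summed level was 1490 to 1880 TPM in CK, 1350 to 1510 in PB-020, 1380 to 2690 for anti-PD-1 and 1600 to 1730 for the combination. Of 10, 1 was called higher in the averaged comparison, Fcgr1, which encodes an Fc receptor known to respond to interferon gamma (0.46 ± 0.14, edgeR adjusted p = 0.035). The median log2 change was 0.15, and 11.8% of all genes were called higher. Anti-PD-1 tumor 1, which had the highest Cd274, Pdcd1lg2, Cd80 and Cd86 of the 12, also had the highest summed T cell, macrophage and dendritic cell markers, at 143, 2690, 32.2 (classical) and 336 TPM (mature). No marker of any list was at 0 in all 12 tumors, and the part of these cells in the changes of the ligands was not tested. The averaged count of 4 called ligand genes was the same without anti-PD-1 tumor 1, and was 3, without Pdcd1lg2, when CK tumor 3 was left out.

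Of the remaining lists in the averaged comparison, edgeR called 0 of 6 neutrophil, 0 of 8 skeletal muscle, 0 of 1 B cell and 0 of 1 epithelial markers tested. Of 8 fibroblast markers 1 was called higher (Postn) and 3 lower (Col3a1, Dcn and Pdgfra), of 6 endothelial markers 1 lower (Cldn5), and of 4 erythroid markers all 4 lower, by −2.20 to −2.42 on the log2 scale. Among all genes tested, 24.2% were called in either direction and 11.8% were called higher. The summed B cell level was 0.680 to 2.70 TPM.

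**Figure D5:**
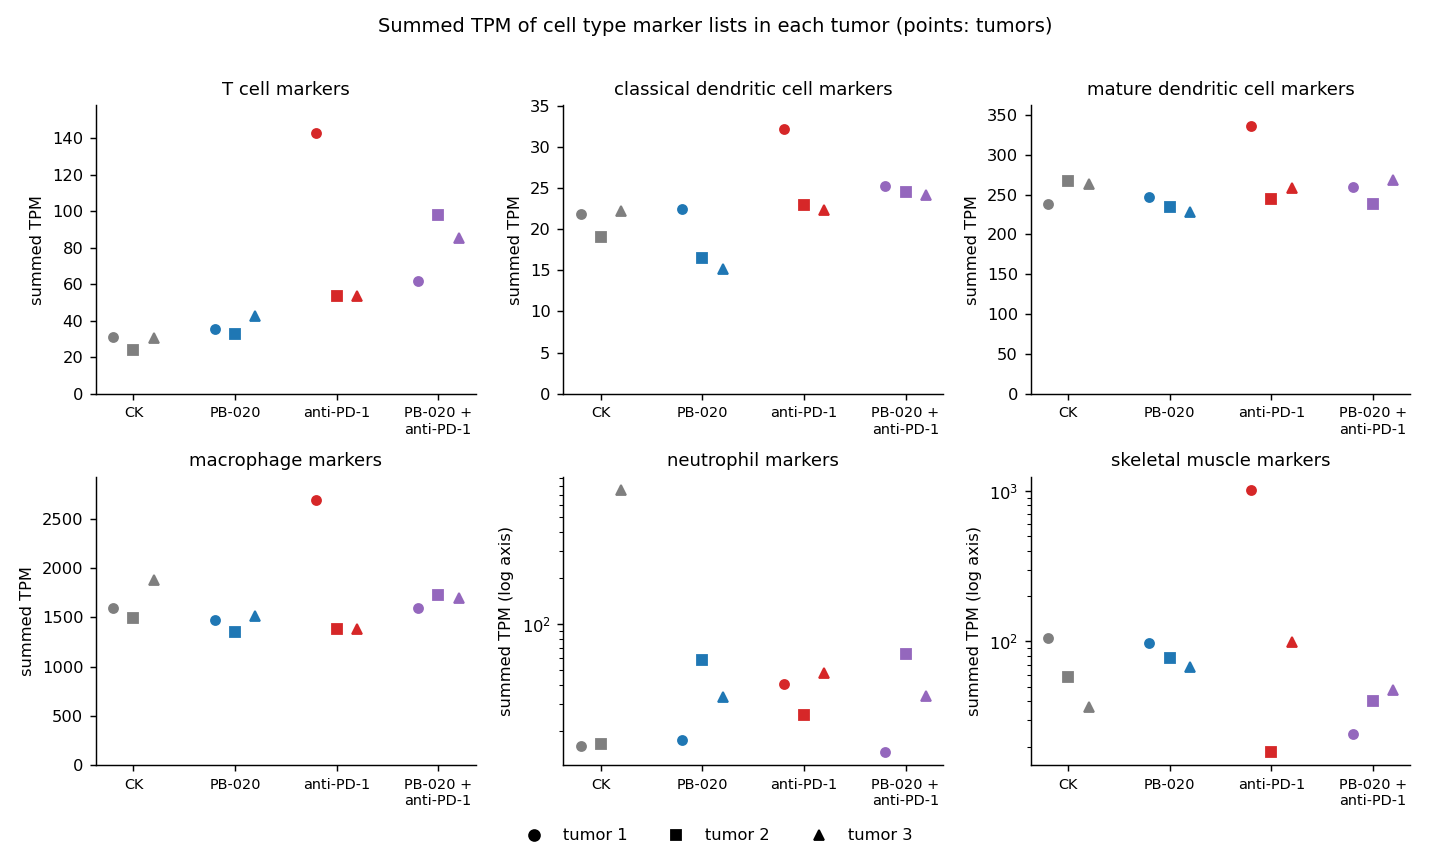
Summed TPM of 6 lists of cell type markers in each tumor (points), by treatment group, with log axes for neutrophil and skeletal muscle markers. T cell markers are higher in all 6 antibody-treated tumors than in the other 6, macrophage markers overlap between CK and the combination, and CK tumor 3 and anti-PD-1 tumor 1 stand apart for neutrophil (748 TPM) and muscle (1010 TPM) markers.

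Genes whose pattern was most like that of each ligand were ranked by Pearson r of log2 CPM, counts scaled by library size, over the 12 tumors, as a description. The 12 points share treatment groups and include anti-PD-1 tumor 1, the highest tumor for Cd274, Pdcd1lg2, Cd80 and Cd86. The nearest to Cd274 were Eif4e3, Ier5, Irak2, Batf2 and C1s1 (r of 0.964 to 0.976), of which Batf2 is known to be induced by interferon gamma and C1s1 encodes a complement protease. The nearest to Pdcd1lg2 were Il21r, Ikzf4, Fbln7, Tigit and Lag3 (0.951 to 0.97), which include the cytokine receptor IL-21R and the inhibitory receptors TIGIT and LAG-3 of lymphocytes.

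The nearest to Cd80 were Plac8, Cd53, Cd52, Ptprc and Sulf1 (0.955 to 0.97), of which Ptprc encodes the leukocyte marker CD45 and Cd52 and Cd53 encode leukocyte surface proteins. The nearest to Cd86 were Gpm6b, Il12rb2, Icos, Cd28 and Lag3 (0.98 to 0.99), so that 1 of the receptors of CD86, Cd28, was among its 5 closest. The 5 nearest to Cd276 were Arsi, Coro2b, Rgs3, Cacng7 and Cacnb3 (0.878 to 0.924), and to Icosl they were Slc11a1, Unc93b1, Engase, Aldh1b1 and Muc1 (0.876 to 0.904). Among the ligands themselves, r was 0.840 to 0.934 for the 6 pairs of Cd274, Pdcd1lg2, Cd80 and Cd86. It was 0.475 to 0.666 for the pairs of Icosl with these genes, and 0.147 to 0.439 for the pairs that include Cd276.

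Cd274 and Pdcd1lg2 lie next to each other, with 22823 bases between the end of the first and the start of the second. The other genes within 100 kb of either were examined after the changes of the ligands had been seen. Jak2, Insl6, Plgrkt and Ric1 had log2 changes with the antibody of 0.12, 0.09, −0.09 and −0.05 averaged over PB-020, with edgeR adjusted p of 0.13, 0.73, 0.57 and 0.50, against 1.03 and 2.13 for Cd274 and Pdcd1lg2. Plgrkt overlaps the RefSeq span of Cd274 and lies on the opposite strand in GENCODE, and whether reads were counted by strand is not given in the sources used here. Its level was 39.27 FPKM in anti-PD-1 tumor 1, where Cd274 was highest, and 46.77 to 66.40 FPKM in the other 11 tumors.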

How the data were processed

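RNA of 12 MC38 tumors was sequenced by the authors as pairs of 150 bases. Per the labels, the processing notes name HISAT, Bowtie2 and GRCm38.p6, and the methods name Bowtie2, RSEM and mm10 or hg19. The deposited values are expected counts from RSEM, not normalized and whole in 91.0% of cases, and FPKM and TPM values, which the authors scaled by gene length and library total. The 6 genes and all lists were chosen with earlier results of these data known.

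Expected counts were rounded and fitted for all genes in 1 model of 4 group means over 12 libraries (edgeR 4.0.16, TMM, filterByExpr with a minimum of 10 counts, two-sided quasi-likelihood test, R 4.3.3). P-values were Benjamini-Hochberg adjusted over the 13563 genes tested and called under 0.05. Named genes were the 7 family members, the 5 most alike genes of each, up to 4 called genes per list with the smallest p in the combination or anti-PD-1 against CK, and Pdcd1, Ifng and Irf1. Others were named after their values were seen, and some list genes are not reported by name here. The study's own rule, a fold over 1.5 with an unadjusted p under 0.05 on FPKM, was run as an alternative, as were DESeq2 1.42.0, limma 3.58.1 on log2(FPKM + 1), other filters and scaling, a replicate block and leaving out each tumor. The fit was tested on simulated data. Groups and tumor numbers came from the sample labels, doses and days from the methods. The labels do not say that the 3 samples of a group came from separate mice, so p-values measure only the spread between these samples, which may be technical. Of the rows, 18091 (99.3%) matched RefSeq genes of GRCm38.p6, the source of 1-based coordinates and promoter windows.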

Additional observations from a re-analysis of the deposited data

How the results depend on the processing

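No change of a called gene reversed under any alternative. Under a fold over 1.5 with an unadjusted edgeR p under 0.05, 4 genes passed in anti-PD-1 against CK (0 before), 4 in the combination against CK (2 before), 3 in the combination against PB-020 (0 before) and 2 in anti-PD-1 against PB-020 (0 before). DESeq2 called 3, 3, 2 and 2 in the same comparisons. In the combination against PB-020, a fit of only the 2 groups called 4, and the study's per-gene test on FPKM called 3, where 1535 and 957 of all genes were called, against 455 before. Leaving out 1 tumor at a time gave 0 to 4 calls in anti-PD-1 against CK, 0 to 3 in the combination against CK, 0 to 3 in the combination against PB-020, 0 to 2 in anti-PD-1 against PB-020 and 2 to 4 for the antibody averaged over PB-020. Over all genes these fits called 137 to 1905, 864 to 3344, 0 to 1269, 0 to 993 and 2086 to 3690, in the same order. The averaged count of 2 came without PB-020 tumor 1, where Cd274 had an adjusted p of 0.050. The 3 in the combination against PB-020 came without anti-PD-1 tumor 1 (1269 of all genes). The cause of these shifts was not tested. Pdcd1lg2, the gene with the fewest counts, lost its averaged call with limma on log2(FPKM + 1) (adjusted p = 0.082) and was removed by the strict filter on low counts, each leaving 3 calls. The comparisons of PB-020 with CK and of the combination with anti-PD-1, and the interaction, had 0 calls in every setting run. The number of ratios past an adjusted p of 0.05 was 9 to 12 on leaving out 1 tumor, against 11.

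Tumor numbers are shared across groups but do not pair the tumors: over 18 pairs with the same number the deviations from group means correlated at −0.21 to 0.289 (median −0.0367), and 2 pairs were over 0.1. With a replicate block, 3 of the 6 genes were called in the combination against CK, with Pdcd1lg2 at an adjusted p of 0.044, and no other call changed. With 3 tumors a group, and few counts for Pdcd1lg2, changes smaller than the intervals given could not be seen.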
